A study of Mus musculus with 8 samples.

Results

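Protein traffic between the endoplasmic reticulum (ER) and the Golgi apparatus was examined through 40 genes, chosen by name for their function, in pancreatic islets of obese and weight-cycled mice. They comprised 9 subunits of the COPI coat, 5 genes of Arf GTPases and their exchange factor, 13 genes of the COPII coat with its GTPase and scaffolds, 6 cargo and KDEL receptors, and 7 tethers and SNAREs. All 40 matched 1 row each among the 35596 genes of the deposited values. Of these 40, 38 had a mean of at least 1 TPM and were tested, as were 8127 genes in all. Sec24a and Sec16b, at 0.538 ± 0.119 and 0.989 ± 0.243 TPM in obese islets (SD, n = 4), were not tested.

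Islets, the hormone-secreting clusters of the pancreas, were from male C57BL/6J mice, an inbred strain. They were freed with collagenase P, picked by hand and sequenced as polyadenylated RNA, with 4 libraries per group. Obese mice received a 10% fat diet during 9 weeks and after it a 60% fat diet during 18 weeks, without interruption. Weight-cycled mice received the 60% diet for 9 weeks, returned to the 10% diet for 9 weeks and had the 60% diet once more for the last 9. Both groups therefore had 18 weeks in all on the 60% diet, and both were on it at the end. The length of the last 60% period, 18 against 9 weeks, and the cycling itself cannot be told apart, and a lean group was not analysed here. Whether libraries are separate animals or pools is not given in the labels, so p-values measure the spread between libraries, which may be technical. TPM, a transcript abundance unit, is a length-scaled share of a library, so that levels of different genes can be compared, but it holds no read depth. In these bulk samples, fewer cells of a type and less RNA per cell cannot be told apart.

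COPII coats bud vesicles from ER exit sites after the exchange factor Sec12 (Preb) loads the GTPase Sar1, which recruits the inner layer of Sec23 and Sec24 and the outer layer of Sec13 and Sec31. COPI coats, recruited to Golgi membranes by Arf GTPases that Gbf1 activates, return escaped ER proteins and recycle receptors. KDEL receptors bind ER chaperones by their carboxy-terminal signal in the Golgi and hand them to COPI vesicles, while tethers and SNAREs dock and fuse the carriers. In beta cells, which secrete large amounts of insulin, proinsulin takes the COPII route on its way to granules.

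Several genes of this machinery are known targets of the unfolded protein response, which acts through the transcription factors Xbp1 and Atf6, so their promoters were searched for 3 elements of that response. RefSeq promoters (build GRCm38.p6, 250 bases before to 50 bases after each start) were held for 37 of the 40 genes, 43 promoters in all. The element TGACGTGG, sought on both strands, was present in 9 of these 43 promoters (20.9%), belonging to 8 genes, and in 222 of all 32851 promoters of the same length (0.676%). The ER stress response elements known as ERSE and ERSE-II had 0 matches in the 43 promoters, against 0.119% and 0.0365% of all promoters. A match describes letters in a window and not a bound site. The 8 genes with a match are shown because they include Kdelr3, which was higher in weight-cycled islets, and Copb2, which was lower. As given below, Copb2 was lower on TPM as deposited but not on the other scales, and its groups overlapped. Copb1, Arf1, Gbf1, Sec23a and Sec24d have the element and were not called on TPM, and Sec16b was not tested. All of these had lower means in weight-cycled islets. Copa, Arf3, Sec24c and Gosr2 were called lower on TPM and had no match. Whether the element bears on these changes was not tested. Each line gives 28 bases, 5′ to 3′ on the gene's own strand, with the element in capitals (CCACGTCA is the same element read on the other strand).
Kdelr3 (chr15:79516368-79516395, plus strand): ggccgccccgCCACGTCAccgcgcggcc
Copb2 (chr9:98563714-98563741, plus strand): cccggaagttCCACGTCAgtgggttggc
Copb1 (chr7:114254691-114254718, minus strand): ccgcccccttCCACGTCAgccaaggact
Arf1 (chr11:59228229-59228256, minus strand): cggcaggcgcTGACGTGGctgccgtcag
Gbf1 (chr19:46152536-46152563, plus strand): aggctagttaCCACGTCAgtgagctgac
Sec23a (chr12:59011994-59012021, minus strand): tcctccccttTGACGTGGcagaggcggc
Sec24d (chr3:123267460-123267487, plus strand): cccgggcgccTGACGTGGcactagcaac
Sec16b (chr1:157506742-157506769, plus strand): tctgtgtggcTGACGTGGcacggcagtt
Distances to the RefSeq start were 30 bases before it in Kdelr3, 28 in Copb1, 26 in Sec24d, 44 in Sec16b, 12 in Gbf1 and 7 in Copb2, while the match of Sec23a began 6 bases after it. Arf1 has a pair of listed starts that share 1 match, 84 bases before one and 21 after the other. The full 250 bases before the start of Kdelr3 (chr15:79516158-79516407, plus strand), the one gene of this machinery that was higher, were as follows, with the element in capitals.
Kdelr3: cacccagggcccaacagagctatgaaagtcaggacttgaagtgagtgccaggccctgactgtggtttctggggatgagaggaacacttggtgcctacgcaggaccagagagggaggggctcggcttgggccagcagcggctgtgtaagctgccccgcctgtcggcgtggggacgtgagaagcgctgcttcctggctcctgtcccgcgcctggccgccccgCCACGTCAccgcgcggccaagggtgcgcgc

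A few features of the libraries bear on every value below. Weight-cycled minus obese on log2(TPM + 1), the 8127 tested genes had a median fold change of -0.26. Median-of-ratios scaling, which divides each library by a factor so that its typical gene is level with the others, set this median to -0.01 (factors 1.02 to 1.22 in obese libraries, 1.05 in weight-cycled replicate 1 and 0.786 to 0.909 in weight-cycled replicates 2 to 4). Deviations of genes from their means went up with transcript length in the libraries of obese mice (rank correlations of 0.183 to 0.375 over genes) and in weight-cycled replicate 1 (0.345), and down in the other weight-cycled libraries (-0.399 to -0.283), and a length correction removed each library's smoothed trend. For 25 of the 40 genes weight-cycled replicate 1 lay within the range of obese libraries, and it was the highest of its group for 24, whereas replicate 2 was the lowest for 28 and lay below every obese library for 30. Summed beta-cell markers ranged from 790000 to 804000 TPM in obese and from 785000 to 813000 TPM in weight-cycled libraries, with 0 of 9 at 0. Ins2 alone was at 652871 to 688724 TPM over all libraries, so this sum says little of the other markers. Of the 9, 5 were called lower and 0 higher (background 23.9% and 1.21%). Summed acinar markers, from digestive-enzyme cells that are themselves rich in ER, ranged from 2620 to 4830 TPM in obese libraries, and were at 7704 TPM in weight-cycled replicate 1 and at 3320 to 3800 TPM in the rest, with 0 of 11 tested markers called. Endothelial markers summed to 30.5 to 53.0 against 17.8 to 39.9 TPM (1 of 5 lower), macrophage markers to 8.48 to 11.3 against 5.01 to 8.30 TPM (2 of 2 tested lower), and plasma-cell markers to 0.700 to 2.58 against 0.248 to 2.89 TPM with Tnfrsf17 at 0 throughout. Of the other hormone cells of islets, alpha-cell markers summed to 4530 to 12300 against 3020 to 8470 TPM (1 of 5 higher, 0 lower). Delta-cell markers summed to 2880 to 4580 against 2360 to 3860 TPM, and Ppy of PP cells to 2150 to 8680 against 2940 to 7380 TPM. Fits with the acinar score as a covariate are given below, and the part of the other cell types was not tested.

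Across the COPI and COPII machinery, Kdelr3 was higher in weight-cycled islets, and Copa, Copb2, Arcn1, Arf3, Sec24c and Gosr2 were lower. With limma on log2(TPM + 1), 1 of 38 tested genes was called higher (2.63%) and 6 lower (15.8%) at an adjusted p under 0.05, where 1.21% of all tested genes were called higher and 23.9% lower. The other 31 did not pass. The share of lower genes was below that of all genes in this fit, but Gbf1, Copb1 and Arf1 just missed the threshold (limma adjusted p = 0.0508, 0.0514 and 0.0543). Without weight-cycled replicate 1 the shares were 55.3% and 54.6%. The median log2 fold change with all libraries, -0.28, lay near the -0.26 of all genes. After median-of-ratios scaling, Kdelr3 was the single higher and Arf3 the single lower gene of the 38 (background 1.24% higher and 0.566% lower), with a median of 0.03 against -0.01 for all genes and with 22 genes above 0 and 16 below. After length correction the same genes, Kdelr3 and Arf3, were called (background 1.78% higher and 1.53% lower), with a median of 0.02. Copa, Copb2, Arcn1, Sec24c and Gosr2 were called on the TPM scale alone among these 3 fits.

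**Figure D1:**
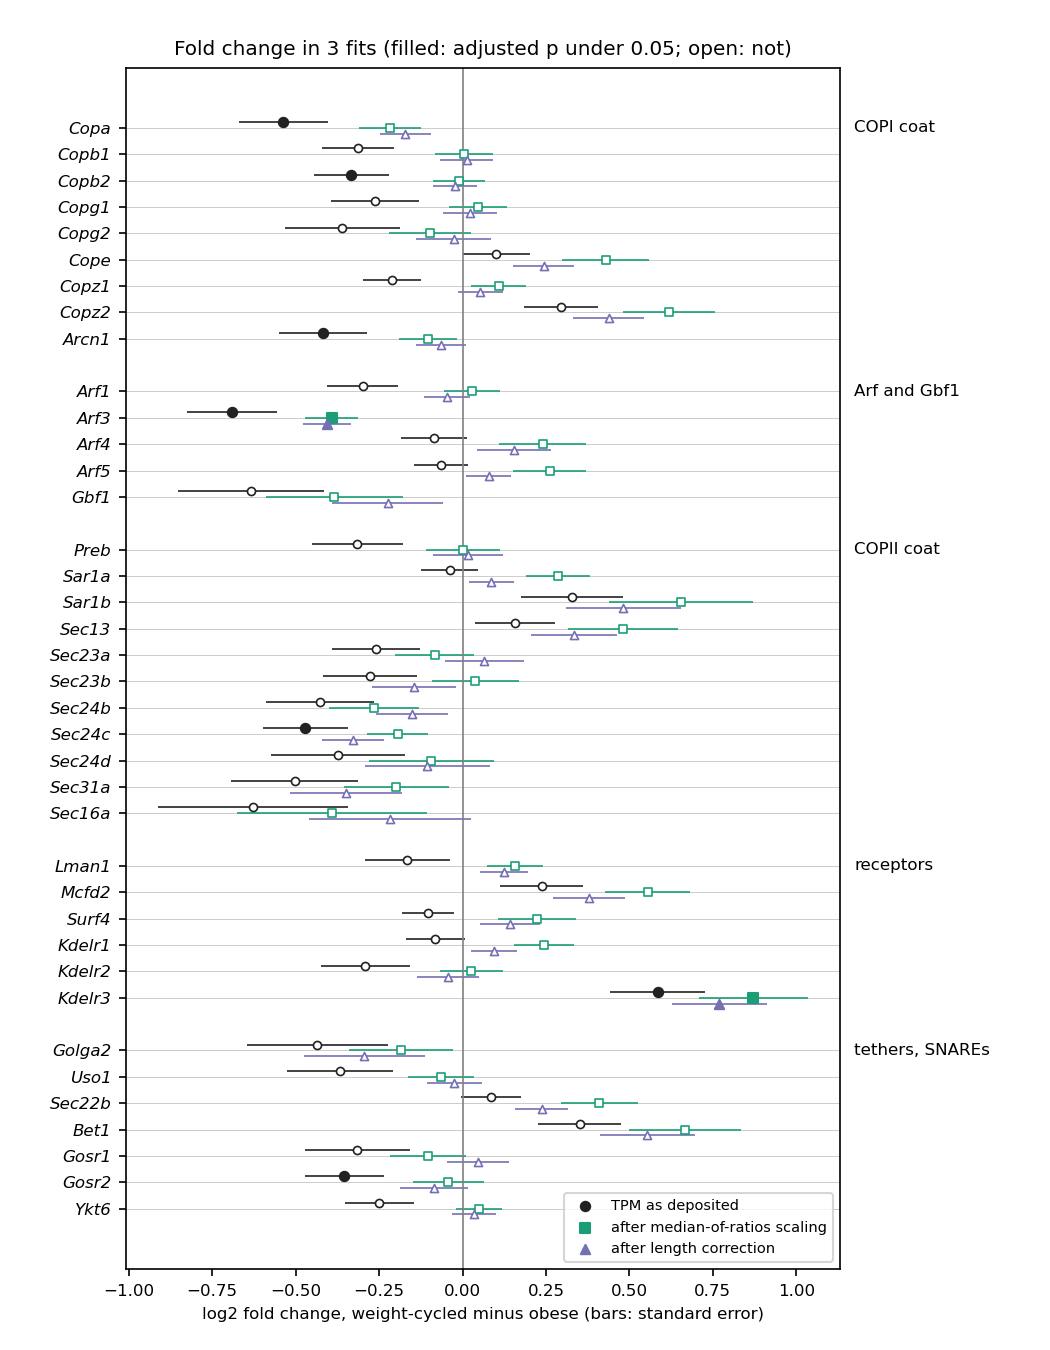
Log2 fold change, weight-cycled minus obese, of the 38 tested genes by role (horizontal axis; bars are standard errors) in 3 limma fits: TPM as deposited (black circles), after median-of-ratios scaling (green squares) and after length correction (purple triangles). Filled symbols passed an adjusted p of 0.05; Kdelr3, at 0.58, 0.87 and 0.77, and Arf3, at -0.69, -0.39 and -0.41, are filled in each.

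These calls depended on single libraries. On TPM, 0 genes of this machinery were called in either direction without obese replicate 1, 2 or 3 or without weight-cycled replicate 2, 3 or 4, where 0.0%, 0.504%, 0.431%, 0.492%, 0.874% and 0.123% of all tested genes were called by limma. Without obese replicate 4, 1 was higher and 3 were lower (background 0.677% and 20.7%). Without weight-cycled replicate 1, 4 were called higher, namely Kdelr3, Copz2, Sar1b and Bet1, and 21 lower, where the background was 3.32% higher and 54.6% lower. With the acinar score as a covariate, 4 were higher and 22 lower in limma (background 2.79% and 51.3%). Scaling without weight-cycled replicate 1 gave 13 higher and 4 lower (background 19.9% and 17.9%). The lower ones were Copa, Arf3, Sec24b and Golga2, and the higher ones Cope, Copz2, Arf4, Arf5, Sar1a, Sar1b, Sec13, Mcfd2, Surf4, Kdelr1, Kdelr3, Sec22b and Bet1. Groups did not overlap on TPM for 8 of the 40 genes, Kdelr3 and Bet1 being higher in each weight-cycled library and Copa, Copz1, Arf1, Arf3, Sec24c and Ykt6 lower (background 1.3% higher and 21.1% lower). After scaling, the groups did not overlap for Cope, Copz2, Lman1, Mcfd2, Kdelr1 and Kdelr3, all higher, and for Copa and Arf3, both lower (background 7.68% and 6.93%). Weight-cycled replicates 2 to 4 alone lay above all obese libraries on TPM for 3 genes, Kdelr3, Sar1b and Bet1, and below them for 16 (background 3.64% and 55.1%). Summed over the 40 genes, the machinery took 1071 ± 59.2 TPM in the obese group and 1008 ± 78.9 TPM in the other (SD, n = 4 each).

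**Figure D2:**
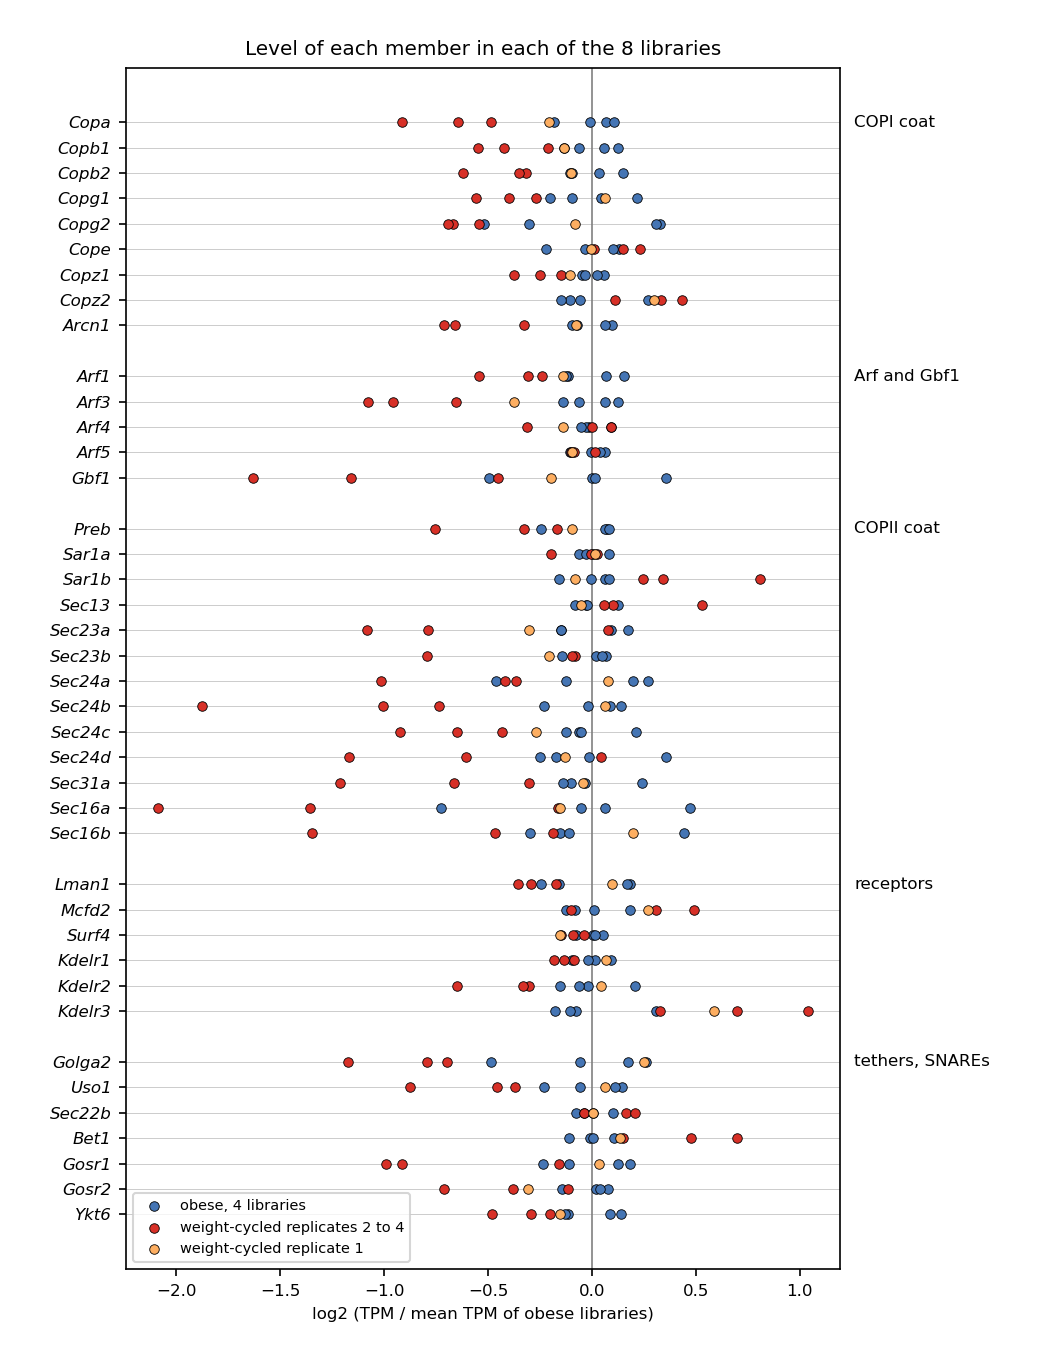
Level of each of the 40 genes in each library as log2 of its TPM over the mean TPM of the obese libraries (horizontal axis), by role; each point is 1 library. Weight-cycled replicate 1 (orange) lies within the obese range (blue) for 25 genes, and weight-cycled replicates 2 to 4 (red) lie below all obese libraries for 16 genes and above them for Kdelr3, Sar1b and Bet1.

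In the COPI coat, 3 of 9 subunit genes were lower on TPM and 0 higher (background 23.9% and 1.21%), and after scaling or length correction 0 of 9 passed in limma (2 higher and 1 lower at an unadjusted p under 0.05 in both). Their medians in the 3 fits were -0.31, 0.00 and 0.01. Copa encodes the alpha subunit, one of the pair of coat subunits that bind the retrieval signals of ER membrane proteins. Copa (ENSMUSG00000026553.17, mm10 chromosome 1, 172082529 to 172122330) was at 34.5, 35.4, 32.7 and 29.0 TPM in obese replicates 1 to 4 and at 28.5, 17.5, 21.05 and 23.5 TPM in weight-cycled replicates 1 to 4. Each weight-cycled library lay below each obese library, although replicate 1 nearly met the lowest of them. Its log2 fold change was -0.54 (SE 0.134, limma adjusted p = 0.0336), and -0.22 after scaling (limma adjusted p = 0.149), where the groups still did not overlap. Copb2, the beta-prime subunit and the partner of Copa in signal binding (ENSMUSG00000032458.6, chromosome 9, 98563721 to 98588382), was at 43.4, 40.1, 36.3 and 36.6 TPM in obese and at 36.5, 25.5, 31.4 and 30.6 TPM in weight-cycled libraries. Its groups met at weight-cycled replicate 1, which lay between the 2 lowest obese libraries. The fold change of Copb2 was -0.33 (SE 0.113, limma adjusted p = 0.0497) and -0.01 after scaling. Arcn1, the delta subunit of the inner coat (ENSMUSG00000032096.16, chromosome 9, 44741564 to 44767845), was at 24.1, 23.5, 21.1 and 21.5 TPM in obese and at 21.4, 14.3, 18.0 and 13.8 TPM in weight-cycled libraries. Here too the overlap came from weight-cycled replicate 1. Its fold change was -0.42 (SE 0.131, limma adjusted p = 0.0435) and -0.10 after scaling. Of the 31-base words in Arcn1 transcripts, 19.7% also occur in transcripts of other genes, so part of its estimate is uncertain.

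Cope, the epsilon subunit, had the highest level of the COPI genes, at 73.7, 72.2, 65.7 and 57.65 TPM in obese and at 67.1, 74.5, 67.7 and 79.0 TPM in weight-cycled libraries. These ranges overlapped, and the fold change was 0.10 (limma adjusted p = 0.421), or 0.43 after scaling (limma adjusted p = 0.0884). The zeta subunit, a small subunit of the inner coat, is encoded by 2 genes whose TPM values pointed in opposite directions. Copz1 went from 28.9 ± 0.987 to 24.9 ± 2.02 TPM and Copz2 from 31.9 ± 4.47 to 39.2 ± 3.56 TPM (SD, n = 4). Neither passed, at -0.21 (limma adjusted p = 0.0785) for Copz1 and 0.29 (limma adjusted p = 0.0611) for Copz2, and after scaling they were at 0.11 and 0.62 (limma adjusted p = 0.373 and 0.0514). The beta subunit gene Copb1 and the gamma subunit genes Copg1 and Copg2 were at -0.31, -0.26 and -0.36, with adjusted p of 0.0514, 0.128 and 0.113 in limma. Scaling turned Copb1 and Copg1 to 0.00 and 0.05, and 22.4% of the 31-base words of Copg2 occur in other genes, most of them in its neighbour Mest.

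Among the Arf GTPases, which recruit COPI, and their exchange factor, Arf3 fell and no other gene passed. On TPM 1 of 5 was lower and 0 were higher (background 23.9% and 1.21%). Arf3 was again the only one called after scaling and after length correction (background 0.566% and 1.53% lower). Arf3 (ENSMUSG00000051853.10, chromosome 15, 98736634 to 98763214), a close relative of Arf1, was at 14.3, 13.7, 12.6 and 11.9 TPM in obese and at 10.1, 6.21, 8.32 and 6.76 TPM in weight-cycled libraries. All weight-cycled libraries lay below all obese ones, replicate 1 being the nearest. The means were 13.1 ± 1.09 and 7.85 ± 1.75 TPM (SD, n = 4), a log2 fold change, with its SE, of -0.69 ± 0.135 (limma adjusted p = 0.0278). It was -0.39 after scaling (SE 0.0794, limma adjusted p = 0.0436) and -0.41 after length correction (limma adjusted p = 0.0265). Without weight-cycled replicate 1 the value was -0.81 (limma adjusted p = 0.000677), and without obese replicate 1 it was -0.65 and did not pass (limma adjusted p = 0.108). Over 18 alternatives on all or part of the libraries it ranged from -0.81 to -0.39 and passed in 11. Only 2.33% of the 31-base words of Arf3 occur in other genes.

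Arf1, the Arf with the highest level, was at 85.4, 80.5, 70.9 and 70.5 TPM in obese and at 69.7, 52.7, 65.0 and 62.0 TPM in weight-cycled libraries. The groups did not overlap by a narrow margin, and the fold change of -0.30 did not pass (limma adjusted p = 0.0543) and became 0.03 after scaling. Words shared with other genes made up 18.7% of Arf1. Arf4 and Arf5, which act at the ER-Golgi intermediate compartment and the early Golgi, had 64.4 ± 2.90 and 49.8 ± 2.56 TPM in obese islets and log2 fold changes of -0.09 and -0.06. Gbf1, the exchange factor that activates Arfs on early Golgi membranes, went from 5.03 ± 1.17 to 2.99 ± 1.27 TPM (SD, n = 4). Its value of -0.63 (SE 0.218) did not pass (limma adjusted p = 0.0508) and was -0.38 after scaling.

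In the COPII coat, 1 of 11 tested genes was lower and 0 were higher on TPM (background 23.9% and 1.21%), and 0 passed in limma after scaling (3 higher and 0 lower at an unadjusted p under 0.05) or length correction (2 and 1). Their medians in the 3 fits were -0.32, -0.08 and -0.11. Sec24c encodes one of the 4 Sec24 proteins, the cargo-binding subunits. Sec24c (ENSMUSG00000039367.11, chromosome 14, 20674308 to 20694852) was at 6.18, 7.49, 6.22 and 5.92 TPM in obese and at 5.36, 3.40, 4.11 and 4.78 TPM in weight-cycled libraries. The groups did not overlap, with weight-cycled replicate 2 the lowest. Its fold change was -0.47 (SE 0.128, limma adjusted p = 0.0354), -0.19 after scaling (limma adjusted p = 0.180) and -0.33 after length correction (limma adjusted p = 0.0732). That correction took the median transcript of Sec24c, 790.5 bases. With its longest, 4461 bases, the value was -0.13 (limma adjusted p = 0.341). Sec24b and Sec24d were at -0.43 and -0.37 with limma adjusted p of 0.0638 and 0.149, and untested Sec24a went from 0.538 ± 0.119 to 0.414 ± 0.123 TPM (SD, n = 4). All 4 Sec24 genes thus had lower means in weight-cycled islets on TPM, and 1 of them passed (background 23.9% lower). On that scale the median of all tested genes was itself -0.26. After scaling Sec24b and Sec24d were at -0.26 and -0.09 and did not pass (limma adjusted p = 0.205 and 0.750).

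Sar1b, a GTPase that starts COPII assembly, had the highest level of the COPII genes, at 62.4, 72.8, 73.7 and 69.4 TPM in obese and at 65.8, 82.4, 88.1 and 122 TPM in weight-cycled libraries. Weight-cycled replicates 2 to 4 lay above all obese libraries and replicate 1 among them. The fold change of 0.33 (SE 0.154) did not pass (limma adjusted p = 0.107), nor did 0.66 after scaling (limma adjusted p = 0.0982) or 0.48 after length correction (limma adjusted p = 0.117). Without weight-cycled replicate 1 it was 0.46 and passed (limma adjusted p = 0.00792). Its paralog Sar1a was at 56.8 ± 2.43 and 55.3 ± 3.88 TPM (SD, n = 4), a value of -0.04. Sec13, an outer-coat subunit that is also part of the nuclear pore, was at 0.16, and its coat partner Sec31a at -0.50 (limma adjusted p = 0.299 and 0.0637). The inner-coat genes Sec23a and Sec23b were at -0.26 and -0.28, although Sec23b held nearly all Sec23 transcripts, at 23.0 ± 1.49 against 1.35 ± 0.155 TPM in obese islets. Preb, the Sar1 exchange factor, was at -0.32, and 23.1% of its 31-base words occur in other genes, chiefly its neighbour Abhd1. Sec16a, the scaffold of ER exit sites, went from 4.45 ± 1.43 to 2.69 ± 1.53 TPM (SD, n = 4), a value of -0.63 that did not pass (limma adjusted p = 0.0993), and untested Sec16b went from 0.989 ± 0.243 to 0.777 ± 0.312 TPM.

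Of the 6 cargo and KDEL receptors, Kdelr3 was higher and none lower in each of the 3 fits. The background in these fits was 1.21%, 1.24% and 1.78% higher, and 23.9%, 0.566% and 1.53% lower. Kdelr3 encodes one of 3 receptors that recognise ER chaperones which have reached the Golgi. Kdelr3 (ENSMUSG00000010830.8, chromosome 15, 79516411 to 79527739) was at 4.85, 6.34, 4.53 and 4.76 TPM in obese and at 7.70, 8.30, 6.42 and 10.5 TPM in weight-cycled libraries. Every weight-cycled library lay above every obese one, but only just for weight-cycled replicate 3 and obese replicate 2. The means were 5.12 ± 0.822 and 8.23 ± 1.71 TPM (SD, n = 4), a log2 fold change, with its SE, of 0.58 ± 0.142 (limma adjusted p = 0.0334). It was 0.87 after scaling (SE 0.162, limma adjusted p = 0.0405) and 0.77 after length correction (SE 0.142, limma adjusted p = 0.0285). The value was 0.61 without weight-cycled replicate 1, the library with the most acinar transcripts (limma adjusted p = 0.00422), and 0.57 with the acinar score as a covariate (limma adjusted p = 0.00603). Without obese replicate 1 it was 0.57 and did not pass (limma adjusted p = 0.108). Over 18 alternatives it ranged from 0.38 to 0.87 and passed in 11. None of its 31-base words (0%) occur in other genes.

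The other KDEL receptors were more abundant and did not pass. Kdelr1 was at 48.3 ± 2.66 and 45.6 ± 3.50 TPM (SD, n = 4), a fold change of -0.08, and Kdelr2 at 26.9 ± 2.94 and 22.0 ± 4.38 TPM, a fold change of -0.29 (limma adjusted p = 0.456 and 0.103). After scaling they were at 0.24 and 0.03 and did not pass. Surf4, a receptor that exports soluble cargo from the ER, had the highest mean over all 8 libraries of the 40 genes, although Sar1b was higher in the weight-cycled mean (89.5 against 82.4 TPM). It was at 91.9, 88.9, 84.1 and 89.6 TPM in obese and at 79.75, 80.1, 86.4 and 83.3 TPM in weight-cycled libraries. Its ranges overlapped, with values of -0.10 on TPM and 0.22 after scaling (limma adjusted p = 0.286 and 0.213). Lman1 and Mcfd2 form a receptor for coagulation factors and other glycoproteins, and were at -0.17 and 0.24 on TPM and at 0.16 and 0.55 after scaling (limma adjusted p = 0.218 and 0.0538 after scaling). All 6 receptor values were above 0 after scaling, as were 22 of the 38 tested genes of the machinery. The receptor median was 0.23, against -0.01 for all tested genes. On that scale 4 of the 6 receptor genes had groups that did not overlap (background 7.68% higher). After length correction 5 of the 6 were above 0, with a median of 0.13.

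**Figure D3:**
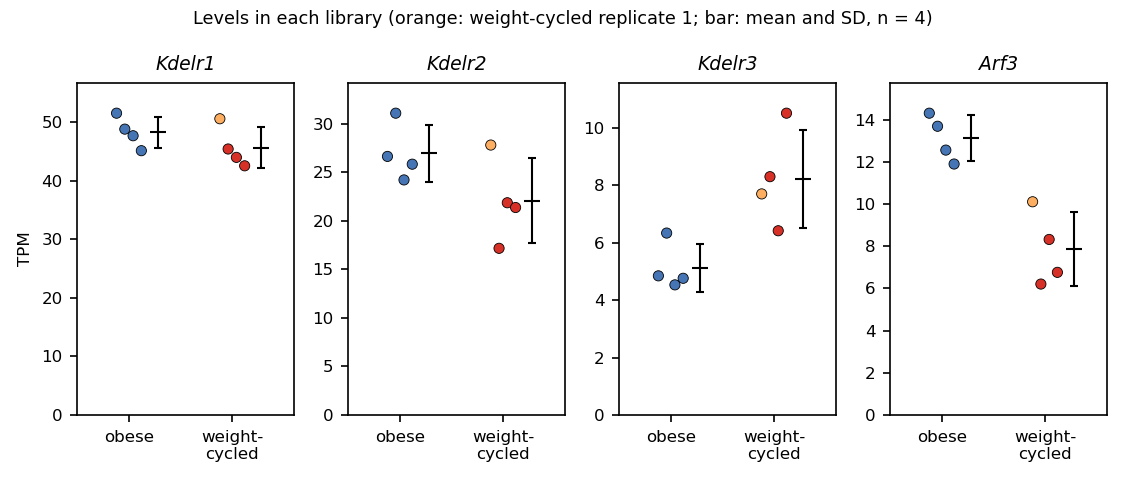
TPM of Kdelr1, Kdelr2, Kdelr3 and Arf3 (vertical axes, from 0) in each library, with obese libraries in blue, weight-cycled replicate 1 in orange and weight-cycled replicates 2 to 4 in red; bars are the mean and SD of 4 libraries. Kdelr3 lies between 4.53 and 6.34 TPM in obese and between 6.42 and 10.5 TPM in weight-cycled libraries, while the groups overlap for Kdelr1 and Kdelr2.

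Of the 7 tethers and SNAREs, Gosr2 was lower on TPM (background 23.9%) and 0 passed in limma after scaling or length correction (2 higher and 0 lower at an unadjusted p under 0.05 in both). Their medians in the 3 fits were -0.31, -0.04 and 0.03. Gosr2, a SNARE of the early Golgi (ENSMUSG00000020946.13, chromosome 11, 103676849 to 103697898), was at 19.5, 20.3, 17.4 and 19.7 TPM in obese and at 15.5, 11.7, 17.7 and 14.7 TPM in weight-cycled libraries. Weight-cycled replicate 3 lay within the obese range and the other 3 below it. The fold change was -0.35 (SE 0.118, limma adjusted p = 0.0473) and -0.04 after scaling. Bet1, a SNARE that joins Gosr2 and Sec22b in fusing ER-derived carriers, was at 17.1, 18.4, 18.6 and 19.9 TPM in obese and at 20.3, 20.5, 25.8 and 30.05 TPM in weight-cycled libraries. All weight-cycled values were above all obese ones, yet 0.35 on TPM, 0.67 after scaling and 0.55 after length correction did not pass (limma adjusted p = 0.0542, 0.0638 and 0.0597). Sec22b, the SNARE with the highest level, was at 40.6, 43.4, 38.4 and 39.4 TPM in obese and at 40.6, 39.4, 45.4 and 46.7 TPM in weight-cycled libraries. Its groups overlapped, at 0.09 on TPM and 0.41 after scaling (limma adjusted p = 0.441 and 0.0757). Gosr1 and Ykt6, SNAREs of transport within the Golgi, were at -0.31 and -0.25, and the groups of Ykt6 did not overlap although it did not pass (limma adjusted p = 0.0795). Golga2 (GM130) and Uso1 (p115), which tether incoming vesicles, were at -0.43 and -0.37 (limma adjusted p = 0.116 and 0.0874).

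Ratios between related genes within a library do not depend on that library's scaling factor. Of 12 such log2 ratios, 3 had groups that did not overlap, each with the smallest p that 70 assignments of libraries allow (exact permutation test, two-sided, p = 0.0286, adjusted p = 0.114 over the 12 ratios), so none passed after adjustment. The ratio of Kdelr2 to Kdelr3 was 2.46, 2.29, 2.42 and 2.44 in obese and 1.85, 1.05, 1.77 and 1.02 in weight-cycled libraries on the log2 scale. It differed by -0.98, so the ratio in weight-cycled islets was 0.507 times that in obese islets. Arf1 over Arf3 was 2.55 ± 0.0359 in obese islets and 3.01 ± 0.177 in weight-cycled islets (SD, n = 4), 1.37 times higher. The ratio of Copz1 to Copz2 was 0.02, -0.39, -0.14 and -0.03 in obese and -0.55, -0.95, -0.40 and -0.72 in weight-cycled libraries, with a closest gap between obese replicate 2 and weight-cycled replicate 3. It differed by -0.52. After length correction, which could be applied to 10 of the pairs, Arf1 over Arf3 at 0.36 and Kdelr2 over Kdelr3 at -0.81 still had groups that did not overlap, and Copz1 over Copz2 did not. Without weight-cycled replicate 1, 6 ratios had separate groups, those of Sar1a to Sar1b, Sec24a to Sec24b and Kdelr1 to Kdelr2 being added. The other 9 ratios had exact permutation p of 0.114 to 0.886.

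**Figure D4:**
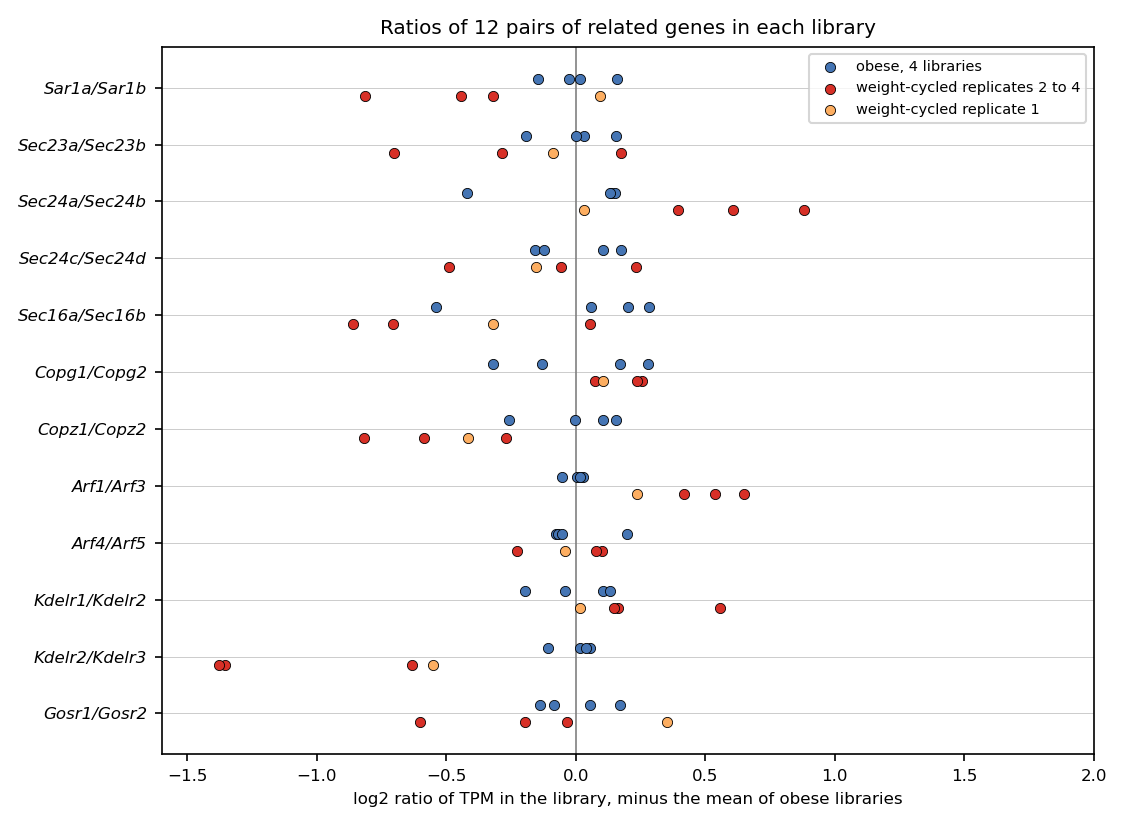
Log2 ratio of TPM for 12 pairs of related genes in each library, minus the mean of the obese libraries (horizontal axis); each point is 1 library. Weight-cycled libraries (red, with replicate 1 in orange) lie wholly to one side of obese libraries (blue) for Copz1/Copz2, Arf1/Arf3 and Kdelr2/Kdelr3.

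Fold changes of the machinery were ordered by transcript length. Across the 38 tested genes, Spearman's rho between the TPM fold change and the longest coding transcript was -0.819, against -0.459 across all 8127 tested genes, which share the same 8 libraries. The rho was -0.709 after the length correction, which used the median transcript, and -0.628 after a correction that used the longest one (-0.200 and 0.001 for all genes). The 10 genes with transcripts under 2000 bases had a median of 0.13, where all genes of that length had -0.12. On TPM 6 of these 10 were above 0, among them Kdelr3 at 1411, Bet1 at 1516, Sar1b at 1201, Cope at 1300 and Copz2 at 930 bases. Below 0 were Arf1 (1991 bases) at -0.30, Kdelr2 (1829) at -0.29, Kdelr1 (1599) at -0.08 and Arf5 (1116) at -0.06. After scaling all 10 were above 0, with a median of 0.45 against 0.16 for all genes of that length. The 28 longer genes, which include Arf3 at 4566 and Copa at 4622 bases, had a median of -0.32, where all longer genes had -0.31. With the correction by longest transcript, Kdelr3 was at 0.71 and Arf3 at -0.35 (limma adjusted p = 0.0277 for both). Of the other genes called on TPM, Copa was at -0.17, Copb2 at -0.02, Arcn1 at -0.07, Sec24c at -0.33 and Gosr2 at -0.09 after the first correction. With the correction by longest transcript they were at -0.20, -0.06, -0.09, -0.13 and -0.07 in the same order, and none passed after either.

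**Figure D5:**
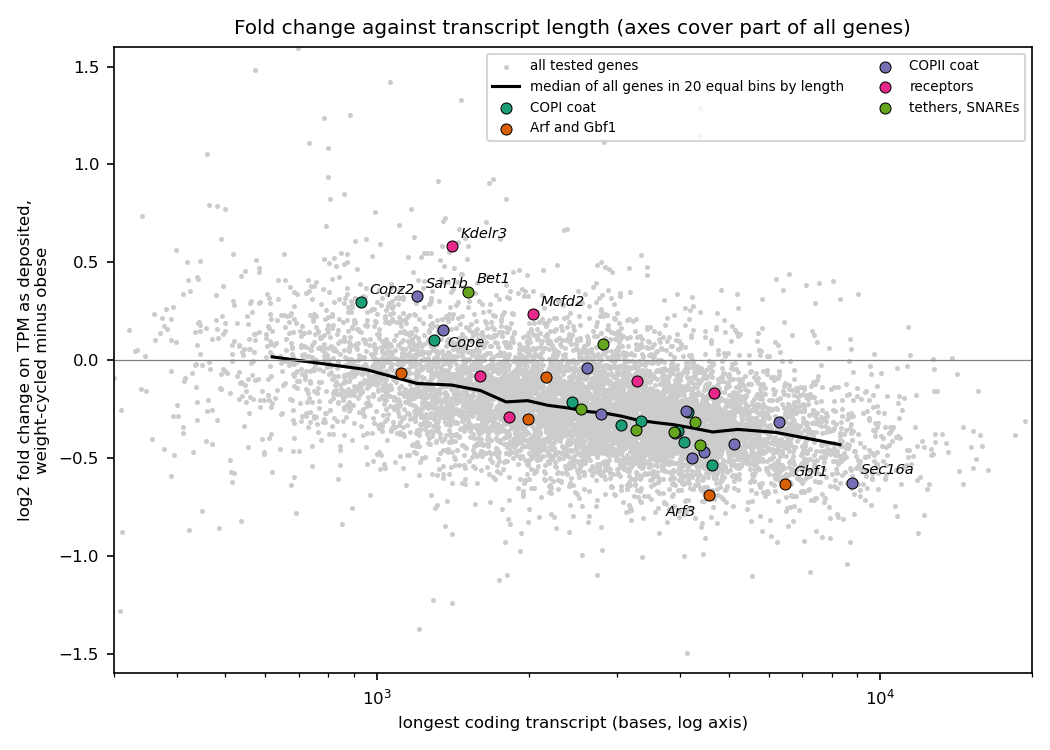
Log2 fold change on TPM, weight-cycled minus obese (vertical axis), against the longest coding transcript in bases (horizontal log axis) for the 38 tested genes by role (coloured), with all tested genes in grey and their median in 20 equal bins as a black line. Kdelr3, Sar1b, Bet1 and Copz2 lie above the line among short transcripts, and Arf3, Gbf1 and Sec16a lie below it among long ones.

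Beyond the coat machinery, 67 other genes of ER-Golgi transport (Rab GTPases, TRAPP and COG tethers, GTPase regulators and further membrane proteins) were measured, of which 63 were tested. On TPM, 1 was higher and 13 were lower, with a median of -0.24, and the remaining 49 did not pass (background 1.21% higher and 23.9% lower). Yif1b, a membrane protein of ER-to-Golgi transport, had 16.0 ± 1.17 TPM in obese islets and 23.8 ± 4.43 TPM in weight-cycled ones (SD, n = 4). Its groups did not overlap, and its log2 fold change was 0.53 (SE 0.129, limma adjusted p = 0.0334). Its value was 0.84 after scaling (limma adjusted p = 0.0514) and 0.67 after length correction (limma adjusted p = 0.0406). Cog5, a subunit of the tether of retrograde Golgi vesicles, went from 4.01 ± 0.455 to 2.27 ± 0.476 TPM (SD, n = 4), a fold change of -0.62 (SE 0.125, limma adjusted p = 0.0302). It also passed after scaling at -0.38 and after length correction at -0.30 (limma adjusted p = 0.0425 and 0.0495). Rab6a, a GTPase of Golgi retrograde transport, was at -0.51 and Rab1b, a GTPase of ER-to-Golgi transport, at -0.33 (limma adjusted p = 0.0345 and 0.0354), and after scaling they were at -0.21 and -0.01 and did not pass. After scaling 1 of the 63 was higher, Ergic2 at 0.53 (limma adjusted p = 0.0478), and 1 lower, Cog5, with a median of 0.05 (background 1.24% and 0.566%). After length correction 1 was again higher and 1 lower (background 1.78% and 1.53%), but the higher gene was Yif1b. Ergic2 was at 0.21 on TPM and 0.34 after this correction, by the median transcript, and did not pass (limma adjusted p = 0.134 and 0.0615). With the correction by longest transcript it was at 0.54 and passed (limma adjusted p = 0.0334). In that fit 2 of the 63 were higher, Ergic2 and Yif1b, and 1 was lower, where 342 of all 8127 genes were called either way.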

How the data were processed

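Per the labels, polyadenylated islet RNA of 4 obese and 4 weight-cycled samples was sequenced. The submitters' processing notes name Salmon 1.5.2 and build mm10, and the authors deposited gene-level TPM. The sources used here do not give the annotation, the summing to genes or the strandedness of the libraries. Libraries sum to nearly the same total, so depth is unknown and no counting interval was computed. Genes averaging at least 1 TPM were fitted with limma 3.58.1 (R 4.3.3; empirical Bayes, mean-variance trend, two-sided) on log2(TPM + 1), with Benjamini-Hochberg adjustment over 8127 genes at 0.05. Fold changes on this scale understate changes of low genes. Alternatives were pseudocounts of 0.1 and 5, no filter, a mean of 5 TPM, median-of-ratios scaling, quantile normalization, removal of a loess trend (span 0.5) on transcript length (GENCODE M21), an acinar covariate, robust variance, a replicate block and leaving out each library. Combinations of scaling or length correction with the last 2, and correction by the longest transcript, were chosen after the data were seen.

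The 40 genes, the other lists and the tests were chosen with earlier results of these data known. All 40 are named. Values by library are given for genes called on TPM, after scaling or after length correction and for the most abundant gene of each role, and also for Bet1, chosen after its values were seen. Of the other ER-Golgi genes, up to 3 rises and 3 falls with the smallest adjusted p on TPM are named, and also Ergic2, called after scaling. Shared sequence was measured as the share of 31-base words found in transcripts of other genes. The limma fit was tested on simulated data with noise drawn independently for each gene. That simulation cannot show how calls depend on single libraries.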

Additional observations from a re-analysis of the deposited data

Results flagged for a closer look

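Dixon's ratio was computed for 104 groups of 4 values to find libraries apart from their group, and 5 passed, where chance gives about 5.2. Weight-cycled replicate 4 had 50.3 TPM of Arf5, and the rest of that group 46.4 to 46.9 TPM. Preb was at 22.2 TPM in obese replicate 3 against 27.4 to 27.8 TPM. For Sar1a, weight-cycled replicate 2 had 49.5 TPM and the rest 56.6 to 57.7 TPM. The log2 ratio of Sec24a to Sec24b was -1.93 in obese replicate 4 against -1.38 to -1.36, and that of Arf4 to Arf5 was 0.57 in the same library against 0.294 to 0.320.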

How the results depend on the processing

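Of the COPI and COPII genes, limma called 1 higher and 6 lower. Over all genes it called 0 of 19482 without the filter on low values, 297 of 8127 with quantile normalization, 2903 with the replicate block and 4396 with the acinar covariate, against 2044. Higher genes numbered 0 without the filter on low values (3 at an unadjusted p under 0.05), 2 with quantile normalization, 4 with the acinar covariate and 0 to 4 when single libraries were left out. Lower genes numbered 0 without the filter (13 at an unadjusted p under 0.05), 1 after scaling, quantile normalization or length correction, 22 with the acinar covariate and 0 to 21 with libraries left out. Where leaving out a library gave 0, 2 to 4 higher and 8 to 16 lower genes had an unadjusted p under 0.05. After scaling, 0 to 13 were higher and 0 to 4 lower with libraries left out, and after length correction 0 to 9 and 0 to 4. In both of these fits 0 passed without any one of the obese libraries or without weight-cycled replicate 2 or 4 (6 to 11 higher and 1 to 5 lower at an unadjusted p under 0.05), and without replicate 3, 1 was higher in both and 1 lower after length correction. Deviations of same-numbered libraries had r of -0.276 to 0.231, within the -0.34 to 0.309 of libraries with different numbers. These few values show no pairing by number and cannot exclude one. The replicate block gave 3 higher and 9 lower on TPM, 6 higher and 1 lower after scaling, and 3 higher and 1 lower after length correction. With that block, 2903, 449 and 341 of all 8127 genes were called either way in these 3 fits.

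Of the other ER-Golgi genes, 1 was higher and 13 lower. Higher genes became 0 without the filter, 2 with quantile normalization and 0 to 1 with libraries left out. Lower genes became 0 without the filter, 7 at a mean of 5 TPM and 1 after scaling, quantile normalization or length correction. They became 30 with the acinar covariate (background 51.3%) and 0 to 32 with libraries left out. The 32 came without weight-cycled replicate 1 (background 54.6%). Paralog ratios with separate groups numbered 3 to 6 with libraries left out.

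Values that were below 0 on TPM turned positive for some genes, and the cause was not tested. After scaling these were Copb1 0.0044, Copg1 0.0459, Copz1 0.108, Arf1 0.0276, Arf4 0.24, Arf5 0.261, Preb 0.0019, Sar1a 0.287, Sec23b 0.0382, Lman1 0.158, Surf4 0.223, Kdelr1 0.243, Kdelr2 0.0264 and Ykt6 0.0491. After length correction they were Copb1 0.0126, Copg1 0.0215, Copz1 0.0537, Arf4 0.153, Arf5 0.0784, Preb 0.0162, Sar1a 0.086, Sec23a 0.0649, Lman1 0.124, Surf4 0.142, Kdelr1 0.0944, Gosr1 0.0451 and Ykt6 0.0349. Quantile normalization gave Arf5 0.0359, Sar1a 0.0652, Sec23a 0.0174 and Kdelr1 0.0355. Leaving out single libraries put Sar1a, -0.04 on TPM, between -0.0602 and 0.0123, the latter without weight-cycled replicate 2. Arf3 stayed below 0 and Kdelr3 above 0 in every alternative run. Without depth, the precision of genes near 1 TPM is unknown.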
